A study of Brassica napus with 12 samples.

Results

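Rapeseed plants of the backcross class Slike were compared with the wild-type line ZS11 by RNA sequencing of apical meristems, the shoot tips that give rise to all above-ground organs. Libraries were chosen by their titles: Slike 1 to 3 and ZS11 1 to 3, which are 6 of the 12 libraries of the series. ZS11 carries the genotype label WT. Slike plants are second-backcross (BC2) individuals of ZS11 and SX3, a line described as a natural mutant, and carry the genotype label mutant, as SX3 does. The other BC2 class, Zlike, carries the label WT and differs from Slike in inflorescence and plant architecture; the 3 SX3 and the 3 Zlike libraries are given beside the comparison for orientation. All plants were grown without treatment at an experimental station and were sampled when inflorescence primordia had differentiated and floral primordia were starting to form. The direction of the backcross, the age of the plants, the hour of sampling and the number of plants in a library are not stated in the labels. The p-values thus rest on the variation among the libraries at hand, part or all of which may be technical.

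Rapeseed (Brassica napus) is an allotetraploid, so most genes exist as near-identical copies on an A and a C chromosome. At the sampled stage an inflorescence meristem begins to place floral meristems on its flanks. In Arabidopsis this step depends on floral meristem identity genes such as LFY, AP1 and CAL, and the AP1 group then works with SEPALLATA (SEP) proteins and with the organ identity genes AP3, PI and AG to specify sepals, petals, stamens and carpels. Genes are named here by the best protein match in the deposited annotation, which need not be the exact Arabidopsis counterpart. Reads shared by near-identical copies may have been divided between them in counting, so the value of a single copy is less certain than the sum over copies.

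Total counts lay between 13445924 and 14596920 in Slike and between 14608125 and 17778731 in ZS11. Libraries of a group were close to each other, with a common coefficient of variation beyond counting noise of 2.8% over the 6 libraries. Levels are read counts per unit of TMM-scaled library size (CPM) on a scale shared by all 12 libraries, given as mean ± SD over 3 libraries, and a positive log2 change means higher in Slike. The label of the tissue was checked against 11 meristem marker symbols with 46 gene copies. KNOX homeobox genes that keep meristem cells undetermined were present in every library, with summed levels of 120 ± 3.65 CPM (SD, n = 3) for STM and 66.2 ± 2.14 for KNAT1 in Slike, against 268 ± 5.6 and 89.5 ± 1.65 in ZS11. The 2 genes with the symbol LFY were at 0 in all ZS11 libraries and summed to 0.278 ± 0.114 CPM in Slike, and neither passed the filter on low counts. The one with the higher level lies on a scaffold not placed on a chromosome. Copies whose best match has another name are not in this sum, so the level of LFY as a whole is not known from it. Seed storage genes summed to 231 to 245 CPM in Slike and to 373 to 388 CPM in ZS11, of which matches of napin (NAP1) made up 234 ± 6.56 and 378 ± 8.14 CPM; 3 of these 32 genes were tested. Root genes summed to 178 to 183 and 166 to 171 CPM, with 11 of 37 tested members higher and 6 lower. IRT1 on C01 (BnaC01G0128200ZS), a root iron transporter, was the higher one with the smallest p (7.3 CPM in Slike, 1.83 in ZS11), and CPC on A05 (BnaA05G0015200ZS), a root hair factor, the lower one (log2 -0.65 ± 0.12 SE, edgeR adjusted p = 2.91e-06). The part of seed and root genes in the results was not tested.

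Of 49895 genes tested, 27894 differed between Slike and ZS11 by the edgeR quasi-likelihood test at a Benjamini-Hochberg adjusted p under 0.05, which is 55.9%. They divided into 14017 higher (28.1%) and 13877 lower (27.8%) genes in Slike, and the median log2 change over all tested genes was 0.01. A difference of at least 2-fold was called for 6472 genes (13.0%), of which 3539 (7.09%) were higher and 2933 (5.88%) lower. Large differences were mostly increases: at least 16-fold was reached by 523 higher and 39 lower genes when genes without a count in a group were set to the floor of 3 counts per library. A level of 1 CPM or more in all 3 Slike libraries with no count in any ZS11 library was found for 271 genes, and the opposite pattern for 1 gene. Of the 271 genes, 48 lie at the end of A01, past 34 Mb, a stretch that was shifted up in Slike and is described below. For 29847 genes (59.8%) the groups did not overlap. The small spread between libraries makes many small changes significant, so counts of members below are to be read against these shares.

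Floral regulators were the group with the largest increases among the lists examined. The floral meristem identity list holds 70 genes, and of the 50 that were tested 40 were higher, 3 lower and 7 not called, with a median log2 change of 2.47. Of these 50, 18 had under 0.5 CPM in every library of 1 of the groups and so passed the filter only through the group where they were high. Over all 70 genes, the summed level was 556 ± 9.02 CPM (SD, n = 3) in Slike, 213 ± 4.69 in ZS11, 419 ± 1.39 in SX3 and 317 ± 5.22 in Zlike. Slike thus had the highest sum of the 4 groups. Fewer cells of a type and less RNA per cell cannot be told apart in such bulk samples.

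AP1, which turns a lateral meristem into a floral one, was followed through its copy with the highest level, AP1C on A07 (BnaA07G0307000ZS, 27625200 to 27629942). The copy stood at 29.6, 30.5 and 29.1 CPM in the Slike libraries and at 2.04, 2.26 and 2.81 CPM in ZS11. The groups were far apart, and Zlike (11 CPM) and SX3 (21.1 CPM) lay between them. The difference was 12.6-fold (log2 3.66 ± 0.12 SE, edgeR adjusted p = 6.94e-45). Over all 12 AP1 copies, 6 of 7 tested ones were higher and none lower, and the sum was 93.3 ± 5.43 CPM in Slike against 10.7 ± 1.12 in ZS11. CAL, a close relative of AP1 with an overlapping role, had 2 tested copies, both higher in Slike; the one on A08 (BnaA08G0229400ZS) was at 25.5, 22.7 and 22.8 CPM against 5.93, 6.52 and 7.45 in ZS11 (log2 1.84 ± 0.10 SE, edgeR adjusted p = 2.36e-29). AGL8, the table's name for FRUITFULL, a relative of AP1, went both ways. Its copy with the highest level, on A03 (BnaA03G0404700ZS), fell to 14.7, 13.8 and 13.8 CPM from 27.3, 24.8 and 24.4 CPM (log2 -0.86 ± 0.08 SE, edgeR adjusted p = 5.05e-16), while 3 of the 5 copies were higher and the sum was 48.9 ± 2.11 CPM in Slike and 46.5 ± 2.5 in ZS11.

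SEPALLATA genes, whose MADS-box proteins join the other floral MADS proteins into complexes, rose in every tested copy. All 4 SEP1 copies, all 5 SEP2 copies and all 6 tested copies of SEP3 (AGL9 in the table) were called higher. SEP1 on C09 (BnaC09G0506000ZS, 61047372 to 61050276) had 29.2, 28.8 and 25.5 CPM in Slike and 0.291, 0.258 and 0 CPM in ZS11, where the 3 libraries together held 9 counts (log2 7.12 ± 0.20 SE, edgeR adjusted p = 2.05e-48). The SX3 mean was 15 CPM and the Zlike mean 5.06 CPM. SEP2 on C01 (BnaC01G0498700ZS, 56742758 to 56745207) stood at 27.1, 31.9 and 30.2 CPM against 2.85, 2.58 and 2.04 CPM, a log2 change of 3.56 ± 0.12 SE (edgeR adjusted p = 6.87e-44). AGL9 on C05 (BnaC05G0234000ZS) reached 13.8, 15.7 and 15.2 CPM against 0.698, 0.839 and 0.773 CPM (log2 4.27 ± 0.18 SE, edgeR adjusted p = 8.56e-37). Slike lay above both parents for AGL9, since SX3 had 3.15 CPM and the fit of all 12 libraries put Slike higher than SX3 by log2 2.23 (edgeR adjusted p = 8.1e-30).

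Floral organ identity genes followed: of 73 genes 27 were tested, 20 higher and 4 lower (median log2 change 2.27); 8 of the 27 passed the filter only through the high group. The summed level over all 73 was 437 ± 1.82 CPM in Slike and 155 ± 0.92 in ZS11. AP3 and PI form the pair of MADS proteins that specifies petals and stamens. AP3 on A09 (BnaA09G0503200ZS, 54088896 to 54090805) stood at 42, 43.3 and 43.4 CPM in Slike, compared with 0.64, 0.839 and 0.633 CPM in ZS11 (log2 5.92 ± 0.13 SE, edgeR adjusted p = 9.53e-56). PI on C03 (BnaC03G0100100ZS, 5262209 to 5264536) was at 34.4, 34.7 and 33.9 CPM against 0.233, 0.323 and 0.633 CPM (log2 6.45 ± 0.16 SE, edgeR adjusted p = 2.25e-52). Both stood well above the mutant parent, with SX3 means of 14.1 CPM for AP3 and 14.9 CPM for PI, and Slike exceeded SX3 by log2 1.60 (edgeR adjusted p = 3.38e-40) and 1.20 (edgeR adjusted p = 2.01e-27). Summed over copies, AP3 reached 113 ± 0.86 CPM and PI 114 ± 2.19 CPM in Slike, against 1.58 ± 0.479 and 1.53 ± 0.272 CPM in ZS11, and the 2 sums also lay close together in SX3 (39.4 and 41.4 CPM) and Zlike (both 21.7 CPM).

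AG, which specifies stamens and carpels and ends the activity of the floral meristem, had 6.29, 5.81 and 6.8 CPM on C03 (BnaC03G0708200ZS, 68289219 to 68304157) in Slike and 0.0582, 0.129 and 0.0703 CPM in ZS11, where only 4 counts were found in all (log2 6.08 ± 0.35 SE, edgeR adjusted p = 2.93e-27). The carpel gene CRC rose on C06 (BnaC06G0356800ZS) from 1.86, 1.87 and 1.83 CPM to 14.8, 16.4 and 15.4 CPM (log2 3.06 ± 0.14 SE, edgeR adjusted p = 4.47e-33). The 4 members called lower were copies of the ovule and fruit genes AGL11 (1 copy), AGL1 (2 copies) and ALC (1 copy). AGL11 on A03 (BnaA03G0253000ZS) fell to 2.71, 2.45 and 3.1 CPM from 9.07, 9.42 and 9.07 CPM (log2 -1.73 ± 0.15 SE, edgeR adjusted p = 1.74e-17), and SX3 had 0.0245 CPM.

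**Figure D1:**
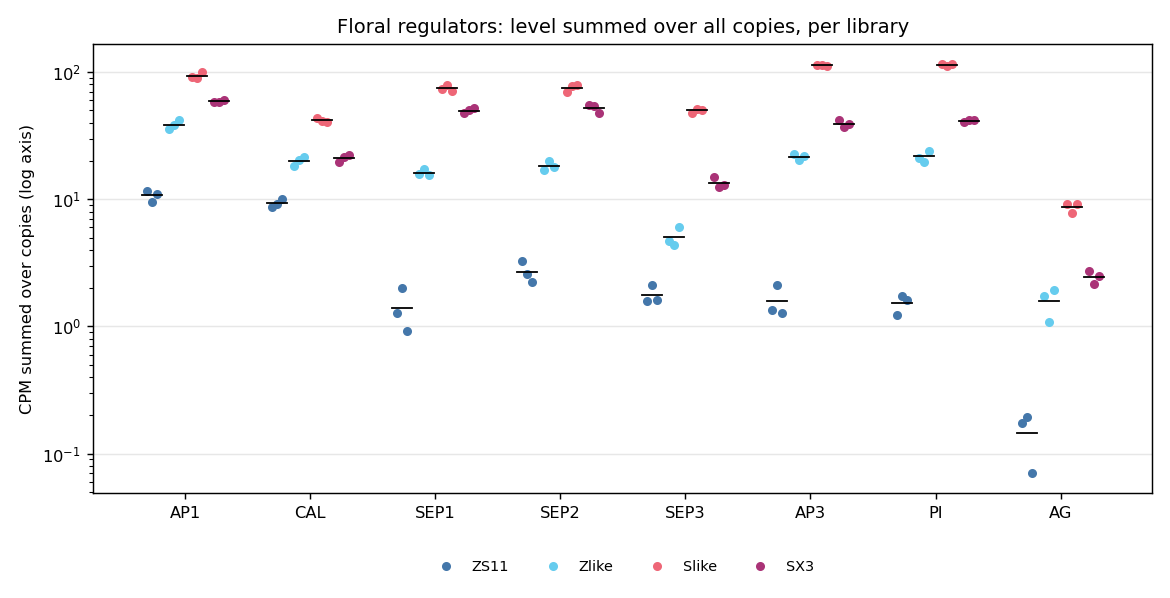
Levels of floral regulators in scaled counts (CPM, log axis), summed over all copies of a gene; each dot is a library, a line marks the mean of 3, and colours mark the 4 groups. For all 8 genes the 3 Slike libraries lie above every ZS11, Zlike and SX3 library; AP3 is at 113 CPM in Slike, 39.4 in SX3, 21.7 in Zlike and 1.58 in ZS11.

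Genes of developing anthers went both ways. The anther and tapetum list holds 185 genes of 33 symbols; 56 were tested, 36 higher and 13 lower (median log2 change 1.10), and 23 of the 56 passed the filter only through the high group. The summed level of the list was no higher in Slike (1053 to 1071 CPM) than in ZS11 (1087 to 1098 CPM). BAM1, a receptor kinase gene that also acts in the shoot meristem, alone stood at 367 ± 0.638 CPM in Slike and 466 ± 1.94 in ZS11. EMS1, a receptor kinase needed to form the tapetum, the layer that nourishes pollen, held both the lower and the higher member with the smallest p and was present in all groups. Its A05 copy (BnaA05G0051900ZS) was lower, at 36.6, 33.9 and 36 CPM against 83.8, 86.4 and 84.8 CPM (log2 -1.26 ± 0.05 SE, edgeR adjusted p = 1.65e-39), and its A10 copy (BnaA10G0260900ZS) higher, at 37.4, 30.7 and 33.1 CPM against 8.61, 7.94 and 7.94 CPM (log2 2.04 ± 0.09 SE, edgeR adjusted p = 8.24e-36). The A10 copy lies in a stretch that was shifted up in Slike, described below. Some other genes of the list were at or near 0 outside Slike; those named next were picked after their values were seen. AMS, a tapetum regulator, had a summed level of 11.3 ± 0.398 CPM over 3 copies in Slike (n = 3), no count in ZS11 or SX3 and 1 count in Zlike, and was at least 58.7-fold higher in Slike than in ZS11 against a floor of 3 counts per library. DYT1, which acts before AMS in Arabidopsis, stood at 11.3 ± 0.447 CPM in Slike, compared with 0.177 ± 0.252 in ZS11, 0.0675 in SX3 and 0.0682 in Zlike. BHLH89 stood at 13.4 ± 0.183 CPM against 0.0194 ± 0.0336 in ZS11, where 1 count was found. A9, a tapetum protein, was at 3.72 ± 0.856 CPM in Slike and had no count in the other 9 libraries. Later markers stayed at the floor: MS1 (MALE STERILITY 1), QRT2, EXL4 and EXL6 had no count in Slike or ZS11. All 3 copies of AMS, all 3 of DYT1 and both of A9 were called higher. With no or few ZS11 counts, these copies passed the filter only through Slike, so the calls follow from how they were picked.

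Of 117 carpel and ovule genes, 54 were tested, 33 higher and 8 lower (median log2 change 0.40), and the list's summed level was 886 to 901 CPM in Slike and 709 to 733 CPM in ZS11. Among members picked after their values were seen, the NGATHA genes, B3 factors of style development, were higher in each tested copy: all 5 tested NGA1 copies, all 4 of NGA2 and both of NGA3. ANT, an AP2-type factor of organ growth, was higher in 6 of 6 copies (371 ± 7.66 CPM summed against 251 ± 5.8). ARF3 on A05 (BnaA05G0104800ZS), an auxin response factor of the gynoecium, was the lower member with the smallest p (1.47-fold, edgeR adjusted p = 8.33e-16). The anther and carpel lists mark later floral organs, and like the floral regulators above they had more higher than lower members. The summed level of the anther list was no higher in Slike. The part of these lists in the differences of the floral regulators was not tested.

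Genes that time flowering did not move as a group. Among 126 flowering promotion genes 90 were tested, with 32 higher, 28 lower and a median change of 0.04 (log2); among 106 repression genes 70 were tested, with 22 higher, 24 lower and a median of -0.01. Within them, SOC1, a MADS-box integrator of flowering signals, was lower. On A03 (BnaA03G0221300ZS, 11493218 to 11495603) it stood at 25.7, 28.1 and 22.8 CPM in Slike and at 89.2, 93.4 and 96.8 CPM in ZS11 (log2 -1.87 ± 0.05 SE, edgeR adjusted p = 2.38e-48). SX3 resembled ZS11 here with 85.9 CPM, whereas Zlike had 25 CPM and did not differ from Slike by the test (log2 0.03, edgeR adjusted p = 0.804). AGL24, a partner of SOC1, was lower in all 4 copies; the one on C07 (BnaC07G0458500ZS) had 34.8, 36 and 34.6 CPM against 53.8, 50.1 and 57.2 CPM (log2 -0.61 ± 0.05 SE, edgeR adjusted p = 5.15e-17).

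FT, the mobile flowering signal, was weakly detected on C06 (BnaC06G0323800ZS) with 2.71, 1.89 and 2.96 CPM against 0.698, 0.968 and 0.422 CPM (log2 1.83 ± 0.30 SE, edgeR adjusted p = 2.03e-07), and SX3 had 9.23 CPM. SPL5, a promoter of floral meristem identity, rose on A05 (BnaA05G0401200ZS) to 21.3, 24 and 23.6 CPM from 3.61, 3.1 and 2.6 CPM (log2 2.87 ± 0.12 SE, edgeR adjusted p = 6.04e-37). FLC, a repressor that cold winters silence, was higher in 1, lower in 2 and not called in 4 of 7 tested copies, with a sum of 110 ± 1.4 CPM in Slike and 121 ± 1.67 in ZS11. The copy with the highest level in Slike and ZS11 was lower, on A02 (BnaA02G0035100ZS, 2018429 to 2021687), at 27.4, 26 and 27.5 CPM against 39.1, 39.5 and 38.8 CPM (log2 -0.53 ± 0.06 SE, edgeR adjusted p = 1.94e-12). The SX3 level was 3.34 CPM. This copy lies in the stretch of A02 that was shifted up in Slike, described below, and went against it. TOE3, an AP2-like repressor, fell on A07 (BnaA07G0142500ZS) to 5.12, 5.6 and 4.38 CPM from 20, 17.7 and 17.8 CPM (log2 -1.88 ± 0.11 SE, edgeR adjusted p = 2.15e-26).

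TFL1, which keeps the inflorescence tip from becoming a flower, differed by copy. The copy with the highest level, on A03 (BnaA03G0012400ZS), had 46.7, 48.5 and 49.2 CPM in Slike and 49, 43 and 50.5 CPM in ZS11, which overlap (log2 0.02 ± 0.05 SE, edgeR adjusted p = 0.755). The copy on C03 (BnaC03G0016500ZS) was higher in Slike, at 38.8, 37.4 and 38 CPM against 20.2, 22.5 and 20.5 CPM (log2 0.86 ± 0.07 SE, edgeR adjusted p = 3.4e-20). Of its other copies 2 were lower, and the sum over 6 copies was 110 ± 1.25 CPM against 102 ± 3.39. SVP, another MADS-box repressor, was not called on A09 (BnaA09G0591400ZS, log2 -0.06 ± 0.04 SE, edgeR adjusted p = 0.19), with 84, 84.4 and 80.1 CPM against 83.4, 88.6 and 87.4 CPM.

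Meristem genes of the KNOX class included lower ones: 2 of 3 tested copies of STM and all tested copies of KNAT1, KNAT2 and KNAT6. The wider family with the Homeobox KN domain was even, with 15 higher and 14 lower of 38 tested genes (median log2 -0.01). STM, needed to form and keep the shoot meristem, was at 62.7, 59.9 and 67.8 CPM on C09 (BnaC09G0172400ZS, 13997291 to 14000215) against 133, 134 and 133 CPM in ZS11 (log2 -1.07 ± 0.04 SE, edgeR adjusted p = 7.8e-41), and its A09 copy (BnaA09G0156700ZS) at 56.7, 54.9 and 54.6 CPM against 140, 132 and 129 CPM (log2 -1.27 ± 0.04 SE, edgeR adjusted p = 1.3e-45). KNAT6 was lower in 4 of 4 copies and KNAT2 in 2 of 2; KNAT1 on C03 (BnaC03G0292200ZS) had a smaller difference (log2 -0.47 ± 0.05 SE, edgeR adjusted p = 1.24e-12). The stem cell genes were near the detection limit. WUS, the organizer factor, on C09 (BnaC09G0117600ZS) had 1.02, 2.17 and 1.48 CPM against 0.814, 0.452 and 0.703 CPM (log2 1.23 ± 0.35 SE, edgeR adjusted p = 0.00165), and CLV3, the peptide that restrains it, on A04 (BnaA04G0177000ZS) had 0.951, 0.7 and 0.606 CPM against 0.698, 0.387 and 0.773 CPM (log2 0.27 ± 0.41 SE, edgeR adjusted p = 0.596). The receptor gene CLV1 on C06 (BnaC06G0418500ZS) was lower by log2 -0.49 ± 0.06 SE (edgeR adjusted p = 9.66e-12). Over the 168 genes of the wider meristem maintenance list, 125 were tested, 42 higher and 40 lower (median log2 change 0.04). Of the boundary NAC genes, NAC098 (CUC2) was higher in 4 of 4 tested copies (25.8 ± 0.703 CPM summed against 10.9 ± 0.845), NAC054 (CUC1) higher in 2 and lower in 2 of 4, and NAC031 (CUC3) higher in 2 of 4. ERL2 on C09 (BnaC09G0574000ZS), a receptor kinase, was the higher member of the meristem list with the smallest p (log2 1.33 ± 0.06 SE, edgeR adjusted p = 7.54e-36).

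Organ polarity genes, which set the upper and lower sides of lateral organs, were tested for 111 of 138 members, with 47 higher, 37 lower and a median change of 0.17 (log2). The YABBY domain family, active on the lower side of organ primordia, was called higher in all 18 tested genes of 22, with a median log2 change of 1.05 and a summed level of 352 ± 6.42 CPM against 152 ± 2.58. YAB1 on C04 (BnaC04G0603400ZS) reached 91.2, 96.6 and 92.4 CPM from 33, 36.9 and 36.5 CPM (log2 1.40 ± 0.05 SE, edgeR adjusted p = 5.89e-43). ATHB-15 on C03 (BnaC03G0790600ZS), an HD-ZIP III factor of vascular and meristem development, fell to 104, 110 and 108 CPM from 224, 219 and 222 CPM (log2 -1.04 ± 0.03 SE, edgeR adjusted p = 4.3e-47).

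Among the circadian clock genes, LHY and CCA1 were lower in Slike, and APRR1 and GI were higher. In Arabidopsis, LHY and CCA1 are Myb factors that peak at dawn and repress APRR1 (TOC1), an evening gene. LHY on A10 (BnaA10G0008600ZS, 433042 to 436969) stood at 42.1, 42.8 and 40.3 CPM in Slike and at 248, 245 and 251 CPM in ZS11 (log2 -2.57 ± 0.04 SE, edgeR adjusted p = 9.85e-71). CCA1 on A05 (BnaA05G0011000ZS) had 15.5, 16.6 and 14.2 CPM against 77.7, 83.4 and 80.7 CPM (log2 -2.38 ± 0.06 SE, edgeR adjusted p = 2.18e-52). APRR1 on C07 (BnaC07G0381000ZS, 50405633 to 50408561) had 58.1, 56.2 and 60.5 CPM against 1.86, 2 and 2.6 CPM (log2 4.77 ± 0.10 SE, edgeR adjusted p = 2.95e-58). GI on A09 (BnaA09G0458700ZS), an evening gene that also promotes flowering, had 59.5, 62.3 and 63.9 CPM against 33.4, 34.3 and 34.7 CPM (log2 0.86 ± 0.05 SE, edgeR adjusted p = 2.37e-26). The groups do not overlap for these 4 genes.

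Tested copies of each of these genes moved in the same direction. All 5 tested LHY copies, both CCA1 copies, all 6 of RVE1, all 4 of RVE8 and 4 of 5 of APRR9 were lower, and all 4 of APRR1, all 6 of APRR5 and both of GI were higher. RVE1, RVE8, APRR9 and APRR5 lie outside the naming rules and were picked with results of these data known. The remaining members of the clock list were not sorted by time of day. The Zlike sums lay near the Slike sums: LHY was at 94.1 ± 2.89 CPM in Slike, 114 in Zlike, 503 ± 4.52 in ZS11 and 5.08 in SX3, and APRR1 at 122 ± 3.98 CPM in Slike, 121 in Zlike, 5 ± 0.291 in ZS11 and 153 in SX3. For APRR1 on C07, Slike did not differ from Zlike by the test (log2 -0.03, edgeR adjusted p = 0.759). Over the whole clock list, 86 of 120 genes were tested, with 27 higher, 38 lower and a median change of -0.25 (log2). Of these 86, 9 passed the filter only through the group where they were high. Whether all groups were collected at the same hour is not stated.

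Glycine-rich RNA-binding proteins, whose Arabidopsis relatives cycle under the clock, gave some of the smallest p-values among higher genes. The GRP1A match on C08 (BnaC08G0450300ZS) stood at 1114, 1254 and 1149 CPM in Slike, compared with 70.3, 74.8 and 68 CPM in ZS11 (log2 4.05 ± 0.03 SE, edgeR adjusted p = 6.76e-92), and the GRP2A match on A04 (BnaA04G0140100ZS) at 474, 452 and 480 CPM against 4.19, 5.03 and 6.68 CPM (log2 6.49 ± 0.05 SE, edgeR adjusted p = 2.2e-90). Zlike and SX3 had 1047 and 1066 CPM of the first and 394 and 356 CPM of the second. GRP10 on C01 (BnaC01G0004600ZS) rose 8.09-fold (log2 3.02 ± 0.04 SE, edgeR adjusted p = 2.47e-72).

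**Figure D2:**
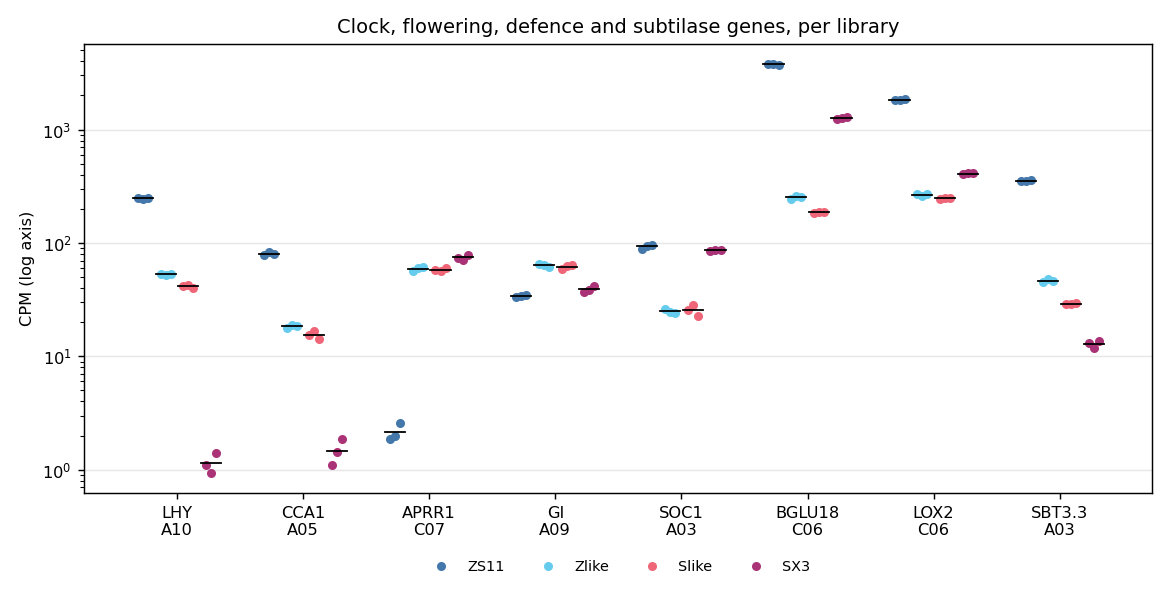
Levels in scaled counts (CPM, log axis) of clock genes (LHY, CCA1, APRR1, GI), the flowering gene SOC1, the defence genes BGLU18 and LOX2 and the subtilase SBT3.3; each dot is a library, a line marks the mean of 3, and colours mark the 4 groups. For all 8 genes the Slike libraries lie apart from those of ZS11 and nearer to Zlike than to ZS11, as for LHY with 41.7 CPM in Slike, 53 in Zlike and 248 in ZS11.

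Ribosomal and core histone genes were more often higher than lower in Slike. Of 951 tested genes annotated as structural constituents of the ribosome, 674 were higher and 80 lower, and the median log2 change was 0.35, and the summed level was 67766 ± 454 CPM in Slike against 53134 ± 215 in ZS11. Core histone genes were higher in 87 of 106 genes, against 7 lower ones (median 0.59) and a sum of 14027 ± 168 CPM against 9435 ± 30.7. The sums in Zlike (67287 and 13015 CPM) were near those of Slike. Pentatricopeptide repeat genes, which process RNA in plastids and mitochondria, were higher in 181 of 436 genes, against 20 lower ones (median 0.31). Among 226 tested cell division genes 82 were higher and 41 lower, with a median of 0.07. MCM7 on C03 (BnaC03G0328000ZS), part of the replication helicase, rose 2.02-fold (log2 1.01 ± 0.05 SE, edgeR adjusted p = 5.17e-32), and the cyclin gene CYCD3-1 on A01 (BnaA01G0040300ZS) fell to 18.4, 18.7 and 20 CPM from 41.4, 38.4 and 41.5 CPM (log2 -1.08 ± 0.07 SE, edgeR adjusted p = 1.33e-25).

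HIS2B, a histone H2B gene, on A10 (BnaA10G0161600ZS, 19592672 to 19593097), was among the higher genes with the smallest p. The gene stood at 194, 204 and 191 CPM in Slike, compared with 5.06, 3.16 and 4.92 CPM in ZS11 (log2 5.48 ± 0.06 SE, edgeR adjusted p = 1.92e-77). Zlike resembled ZS11 with 5.2 CPM and SX3 had 318 CPM, so the Slike level lay between the parents.

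Hormone lists differed in direction, with small median changes. Cytokinin genes were higher in 55 and lower in 25 of 136 tested (median log2 0.25), gibberellin genes higher in 25 and lower in 13 of 56 (0.27), and auxin genes higher in 62 and lower in 81 of 224 (-0.09). Of these tested genes, 5, 8 and 4 passed the filter only through the group where they were high. The summed levels in Slike and ZS11 were 1232 and 1127 CPM for cytokinin, 1334 and 1050 for gibberellin, and 5078 and 5628 for auxin. ARR16 on C03 (BnaC03G0234300ZS), a cytokinin response regulator, rose to 13.6, 13.9 and 12.9 CPM from 1.4, 1.23 and 1.19 CPM (log2 3.39 ± 0.16 SE, edgeR adjusted p = 1.2e-32). IAA26 on A05 (BnaA05G0390500ZS), an auxin response repressor, fell to 40.4, 40.2 and 40.4 CPM from 102, 103 and 103 CPM (log2 -1.35 ± 0.04 SE, edgeR adjusted p = 2.73e-44). IAA18 on A06 (BnaA06G0021000ZS), another auxin repressor, rose 9.42-fold (edgeR adjusted p = 7.7e-29), and LOG8 on C02 (BnaC02G0049300ZS), a cytokinin-activating enzyme, fell 2.34-fold (edgeR adjusted p = 4.34e-30). LOG8 lies in the stretch of C02 that was shifted down in Slike, described below. GASA4, a gibberellin-regulated peptide gene, rose 2.11-fold on A02 (BnaA02G0058500ZS, edgeR adjusted p = 7e-50) and fell 1.27-fold on C02 (BnaC02G0067600ZS, edgeR adjusted p = 3.44e-13), both within shifted stretches of the chromosomes. Genes of organ boundaries and branching divided into 29 higher and 26 lower of 77 tested (median 0.00); ATH1 on A01 (BnaA01G0048800ZS), a homeobox factor of the organ base, rose to 47.4, 38.3 and 39.5 CPM from 18.2, 17.7 and 16.7 CPM (log2 1.25 ± 0.07 SE, edgeR adjusted p = 1.26e-27), and LSH10 on C03 (BnaC03G0244100ZS), an ALOG-domain protein, fell 1.7-fold (edgeR adjusted p = 1.81e-33).

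**Figure D3:**
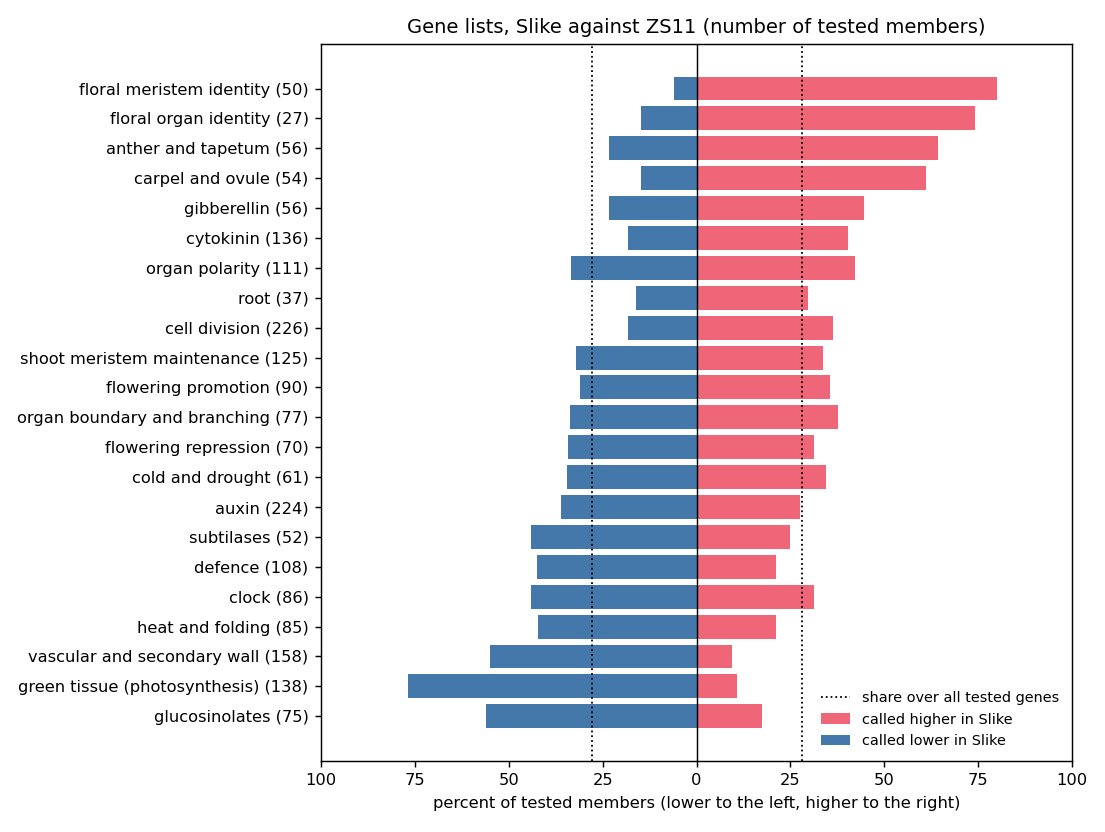
Percent of tested members of each gene list called higher (right, red) or lower (left, blue) in Slike than in ZS11, with the number of tested members in brackets; lists are ordered by median log2 change and dotted lines mark the shares over all tested genes (28.1% higher, 27.8% lower). Floral lists are at the top, with 40 of 50 floral meristem identity genes higher, and photosynthesis, vascular and glucosinolate lists at the bottom, with 106 of 138 photosynthesis genes lower.

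Genes of photosynthetic tissue were lower in Slike: 106 of 138 tested members of the green tissue list were lower and 15 higher, with a median log2 change of -0.47. Over all 165 members the summed level was 8250 to 8255 CPM in the Slike libraries and 12701 to 12718 CPM in ZS11, with 5852 ± 54.3 CPM in SX3 and 7300 ± 95.3 in Zlike. CAB1 on C03 (BnaC03G0191900ZS), a light-harvesting protein, fell to 254, 257 and 253 CPM from 653, 656 and 649 CPM (log2 -1.36 ± 0.02 SE, edgeR adjusted p = 1.86e-65). The exception with the smallest p was RBCS-3B on A07 (BnaA07G0167600ZS), a small subunit of Rubisco, with 9.22, 12.1 and 11 CPM in Slike and 2 counts in all in ZS11. Vascular and secondary wall genes were lower in 87 and higher in 15 of 158 tested (median -0.46), with a summed level of 1644 to 1685 CPM against 2495 to 2508 CPM. CYP84A1 on C07 (BnaC07G0530600ZS), an enzyme of lignin synthesis, fell to 41.8, 42.9 and 38.7 CPM from 153, 142 and 149 CPM (log2 -1.85 ± 0.04 SE, edgeR adjusted p = 1.23e-55). ACL5 on A02 (BnaA02G0080000ZS), a thermospermine synthase of xylem development, rose 1.66-fold (edgeR adjusted p = 2.35e-16) and lies in a stretch of A02 that was shifted up in Slike, described below. These lists mark tissues other than the meristem, and the part that their share of the sample has in the other differences was not tested.

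The lower genes with the smallest p-values included several linked to defence. BGLU18, a beta-glucosidase of endoplasmic reticulum bodies that also frees abscisic acid from its conjugate, stood on C06 (BnaC06G0067000ZS, 13727867 to 13731323) at 185, 188 and 189 CPM against 3757, 3751 and 3746 CPM in ZS11 (log2 -4.32 ± 0.02 SE, edgeR adjusted p = 4.29e-108). Its A06 copy (BnaA06G0018600ZS) stood at 462, 465 and 464 CPM against 5879, 5740 and 5729 CPM (log2 -3.64 ± 0.02 SE, edgeR adjusted p = 6.58e-107). Slike was below both parents for both copies, with SX3 at 1259 and 2098 CPM, and Zlike was also low, at 253 and 601 CPM. PER22, a secreted peroxidase, fell 31.4-fold on C03 (BnaC03G0216600ZS, log2 -4.97 ± 0.03 SE, edgeR adjusted p = 2.32e-95) and 10.9-fold on A03 (BnaA03G0184600ZS, log2 -3.45 ± 0.03 SE, edgeR adjusted p = 1.43e-90). LOX2, the plastid lipoxygenase at the start of jasmonate synthesis, fell on C06 (BnaC06G0315300ZS) to 245, 251 and 249 CPM from 1829, 1827 and 1869 CPM (log2 -2.89 ± 0.02 SE, edgeR adjusted p = 2.57e-93).

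Other lower genes of the same rank were a phosphodiesterase match (named in the table for a venom enzyme, BnaC03G0778100ZS) at 27.2 ± 2.02 against 657 ± 4.26 CPM, the acid phosphatase APS1 (BnaC03G0779400ZS) at 99.4 ± 5.48 against 852 ± 14.6 CPM, and the jacalin-type lectin JAL22 (BnaC03G0225300ZS) at 228 ± 2.04 against 1240 ± 15.6 CPM. All 3 lie on C03 and were called lower. The jacalin domain family as a whole had 15 lower and 6 higher of 27 tested genes, with a summed level of 2094 ± 22.7 CPM against 6580 ± 127. In the defence list 46 of 108 tested members were lower and 23 higher (median log2 -0.17), and the sum over all 241 was 1325 ± 16.3 CPM in Slike, 3333 ± 19.2 in ZS11, 1371 ± 16.9 in SX3 and 1283 ± 12.5 in Zlike. Most of the difference in the sum lay in LOX2, whose 8 copies summed to 452 ± 6.77 CPM in Slike and 2342 ± 19.7 in ZS11. WRKY70 on C06 (BnaC06G0198900ZS), a salicylate-responsive factor, rose to 14.2, 13 and 14.3 CPM from 5.47, 4.84 and 5.62 CPM (log2 1.38 ± 0.12 SE, edgeR adjusted p = 5.12e-18).

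Glucosinolate genes make and break down glucosinolates, the precursors of the mustard oils typical of the family. They were lower in 42 and higher in 13 of 75 tested members (median log2 -0.47). Their sum over 176 genes was 1271 ± 4 CPM against 2392 ± 14.6. CYP83B1 on A08 (BnaA08G0059700ZS), of indole glucosinolate synthesis, fell to 282, 280 and 268 CPM from 623, 614 and 626 CPM (log2 -1.17 ± 0.02 SE, edgeR adjusted p = 4.85e-60). ESM1 on A05 (BnaA05G0409000ZS), a modifier of glucosinolate breakdown, rose to 33.9, 33.9 and 32.4 CPM from 1.63, 1.16 and 1.41 CPM (log2 4.56 ± 0.12 SE, edgeR adjusted p = 1.65e-49), with 70 CPM in SX3. Heat and folding genes had 36 lower and 18 higher of 85 (median -0.27). The chaperone genes HSP90-4 (BnaA02G0125500ZS) and HSP70-10 (BnaA02G0032400ZS) on A02 fell 1.73-fold and rose 1.89-fold (edgeR adjusted p = 1.4e-34 and 7.01e-24). HSP70-10 lies in the stretch of A02 that was shifted up in Slike, described below. Cold and drought genes were even at 21 each of 61; ERD14 on A02 (BnaA02G0219900ZS), a dehydrin, fell 2.71-fold (log2 -1.44 ± 0.03 SE, edgeR adjusted p = 2.19e-61), and RD22 on C02 (BnaC02G0508100ZS) rose 4.2-fold (log2 2.07 ± 0.05 SE, edgeR adjusted p = 9.23e-52).

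Subtilases are the secreted serine proteases to which the title of the series points with a gene called BnaSBT; which of the copies in the table it is cannot be told from the labels. Of 102 genes in the subtilase list, 52 were tested, 13 higher and 23 lower (median log2 change -0.16). SBT3.3 on A03 (BnaA03G0461400ZS, 25205677 to 25209355), whose Arabidopsis counterpart acts in immune priming, stood at 29, 28.8 and 29.4 CPM in Slike, compared with 353, 351 and 358 CPM in ZS11 (log2 -3.60 ± 0.04 SE, edgeR adjusted p = 4.27e-82), with 46.6 CPM in Zlike and 12.9 in SX3. The 3 copies with the highest mean over all libraries had smaller differences, although SBT3.3 stood as high as they did in ZS11: SBT1.7 on A07 (BnaA07G0055700ZS) fell 1.36-fold and on C07 (BnaC07G0082100ZS) 1.37-fold, and SBT1.6 on A05 (BnaA05G0408500ZS) 1.28-fold, each in non-overlapping groups with edgeR adjusted p-values of 8.98e-28, 1.63e-28 and 1.58e-21. SBT2.5 was lower in 10 of 14 tested copies and higher in 1, and SBT1.2, which acts in stomatal patterning in Arabidopsis, was higher in both copies (7.4 ± 0.829 CPM summed against 1.87 ± 0.26). TPP2 on C07 (BnaC07G0434300ZS), a large intracellular peptidase of the same fold, rose to 101, 93.1 and 95.7 CPM from 49.9, 49.4 and 53.1 CPM (log2 0.93 ± 0.04 SE, edgeR adjusted p = 2.18e-33), and Zlike resembled ZS11 with 52.9 CPM.

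Genes of cell walls and surface lipids were among the higher genes with the smallest p. The GDSL lipase At5g33370 on C08 (BnaC08G0114000ZS, 20985012 to 20987570) was at 146, 130 and 138 CPM in Slike and had no count in ZS11, which is at least 715-fold higher against the floor of 3 counts per library. Its A08 copy (BnaA08G0080500ZS) was at 128, 116 and 125 CPM with 1 count in ZS11, and the cell wall protein match At2g20870 on C08 (BnaC08G0457100ZS) at 131, 132 and 131 CPM with 5 counts. SX3 was lower than Slike for each, with means of 34.2, 31.4 and 34 CPM, and Zlike had 6.97, 6.22 and 7.18 CPM. The endochitinase CHB4 match on A09 (BnaA09G0180300ZS) rose 8.27-fold (log2 3.05 ± 0.04 SE, edgeR adjusted p = 1.57e-70). In the GDSL lipase family 67 of 124 tested genes were higher and 31 lower (median log2 0.53), while the summed level of the family went the other way, at 2965 ± 12.9 CPM in Slike and 4115 ± 20.6 in ZS11.

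Along the chromosomes, most of the genome showed no shift. The A subgenome had 6743 higher and 7057 lower genes of 23537 tested, and the C subgenome 7231 and 6795 of 26200. Of 414 bins of 2 Mb with at least 20 tested genes, 398 had a median log2 change between -0.25 and 0.29. The other 16 bins, past a size of 0.3, formed 7 stretches on A01, A02, A10, C01 (2 stretches), C02 and C07. Coordinates are those of the deposited table, whose genome build is not given in the sources used here.

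The end of A01 had the largest shift. In the 4 Mb from 34000001 to 38000000, 177 of 233 tested genes were higher and 37 lower, 166 of them at least 2-fold higher, and the median log2 change was 4.10, or 3.23 with the 57 genes that had no ZS11 count set to the floor. Over all 505 genes of the stretch, 281 had no count in ZS11 and 164 had none in Slike. The summed level was 3370 ± 8.44 CPM in Slike, 2016 ± 14.9 in ZS11, 5731 ± 20.5 in SX3 and 2432 ± 28 in Zlike. RPS3A (BnaA01G0401000ZS, 35744630 to 35747314), a ribosomal protein gene, was at 90.3, 88.1 and 88.4 CPM against 4.83, 4.52 and 4.22 CPM (log2 4.29 ± 0.07 SE, edgeR adjusted p = 1.27e-64). GAPC (BnaA01G0404200ZS, 35946467 to 35948831), a glycolytic enzyme, was at 132, 130 and 129 CPM against 18.1, 15.9 and 17.1 CPM (log2 2.93 ± 0.05 SE, edgeR adjusted p = 1.59e-64). A SEP2 copy of the floral list (36969127 to 36970987) also lies in this stretch.

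The start of C02 was the longest stretch and shifted down. From 1 to 10000000, 522 of 695 tested genes were lower and 34 higher, with bin medians from -0.75 to -0.33. The summed level of its 1411 genes was 10195 ± 13.2 CPM in Slike, 15246 ± 63.4 in ZS11, 13056 ± 27.6 in Zlike and 2279 ± 13.9 in SX3, where 922 genes had no count. PUB26 (BnaC02G0046900ZS), a ubiquitin ligase gene, was at 54.1, 60.9 and 54.6 CPM in Slike, 153, 155 and 158 CPM in ZS11 and 0.024 CPM in SX3 (Slike against ZS11 log2 -1.46 ± 0.04 SE, edgeR adjusted p = 2.21e-50). The methionine synthase match MS1 (BnaC02G0084700ZS) was at 271, 261 and 268 CPM, 593, 573 and 588 CPM and 0.385 CPM (log2 -1.13 ± 0.02 SE, edgeR adjusted p = 8.65e-59).

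The start of A02, from 1 to 6000000, shifted up by less: 370 of 664 tested genes were higher and 128 lower, with bin medians from 0.32 to 0.35 and a summed level of 17808 ± 49.1 CPM against 13871 ± 5.26. The sum was 21433 ± 12.2 CPM in SX3 and 15592 ± 45 in Zlike. HDT2 (BnaA02G0093700ZS), a plant histone deacetylase, was at 363, 346 and 358 CPM against 139, 148 and 151 CPM (log2 1.29 ± 0.03 SE, edgeR adjusted p = 1.42e-56), and AGO9 (BnaA02G0088300ZS), an argonaute of ovules and germ cells in Arabidopsis, at 56.1, 54.8 and 56.9 CPM against 6.86, 7.36 and 6.68 CPM (log2 3.01 ± 0.08 SE, edgeR adjusted p = 7.85e-52). SX3 and Zlike had 638 and 312 CPM of HDT2. AGO9 differed from its stretch and lay above both parents in Slike, with 14.6 CPM in SX3 and 12.1 in Zlike. On C01, 107 of 153 tested genes between 44000001 and 48000000 were lower and 10 higher, and 117 of 189 between 56000001 and 58000000 were lower and 22 higher, with median log2 changes of -0.70 and -0.37. UBP13 (BnaC01G0388800ZS), a deubiquitinase gene, stood at 154, 150 and 148 CPM against 484, 494 and 493 CPM in the first of these (log2 -1.70 ± 0.03 SE, edgeR adjusted p = 1.26e-68), and the GAPC copy BnaC01G0511300ZS at 272, 280 and 271 CPM against 423, 432 and 439 CPM in the second (log2 -0.65 ± 0.02 SE, edgeR adjusted p = 2.94e-40). BGLU44 (BnaC01G0407600ZS), a beta-glucosidase in the first, fell 2.46-fold (edgeR adjusted p = 5.46e-56). Median log2 changes from ZS11 in SX3 and Zlike were -5.20 and -0.09 in the first stretch and -1.27 and -0.08 in the second. UBP13 differed from its stretch and lay below both parents in Slike, with 346 CPM in SX3 and 160 in Zlike. The SEP2 copy on C01 described above lies in the second and went against it, with an 11.8-fold rise.

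A10 shifted up between 24000001 and 28000000, with 251 of 379 tested genes higher, 35 lower and a median log2 change of 0.62. Here Slike, Zlike and SX3 stood together: their median log2 changes from ZS11 were 0.62, 0.59 and 0.60, and the summed levels were 7187 ± 19.2, 7445 ± 14.2 and 7418 ± 29.8 CPM against 5377 ± 44.9 in ZS11. Neighbouring genes could go opposite ways. Of a pair of CYP71A1 cytochrome P450 matches, BnaA10G0271900ZS rose to 307, 311 and 304 CPM from 156, 147 and 148 CPM (log2 1.03 ± 0.03 SE, edgeR adjusted p = 4e-50) and BnaA10G0272000ZS fell to 9.51, 8.74 and 9.56 CPM from 86.3, 84.2 and 90.5 CPM (log2 -3.23 ± 0.06 SE, edgeR adjusted p = 2.04e-59). The bin of C07 from 12000001 to 14000000 rests on 20 tested genes, 13 of them higher and 1 lower. KCS8 (BnaC07G0074300ZS), a fatty acid elongase, was higher at 28.3, 28.5 and 28.9 CPM against 11.6, 10.9 and 10.5 CPM (log2 1.37 ± 0.08 SE, edgeR adjusted p = 1.59e-26), and PRL1-IFG (BnaC07G0077600ZS), a BTB/POZ protein, was the lower one (log2 -0.96 ± 0.08 SE, edgeR adjusted p = 2.35e-18).

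**Figure D4:**
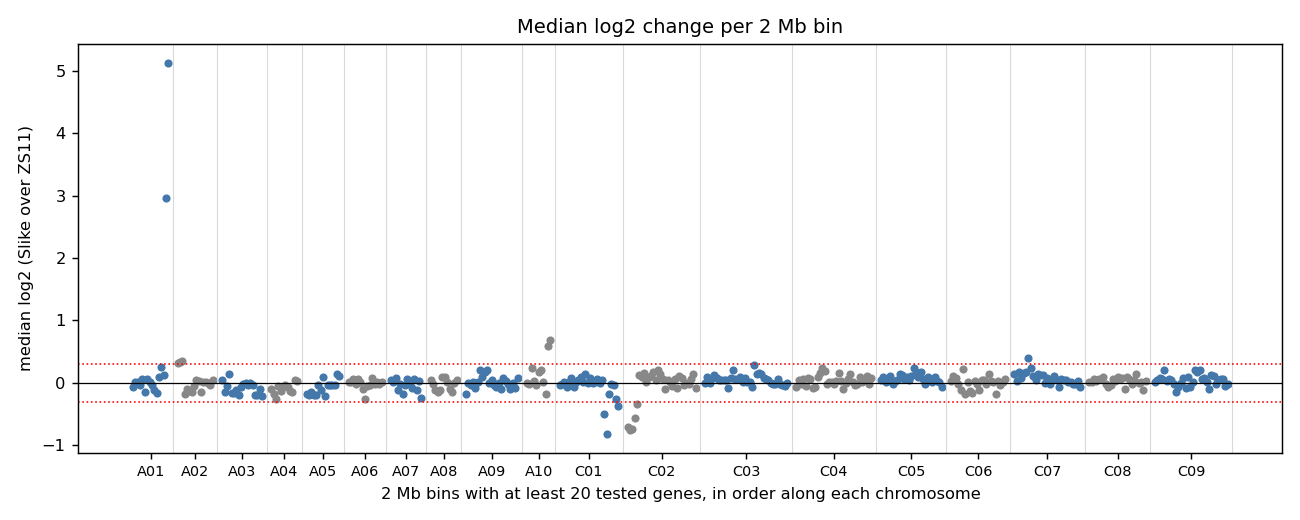
Median log2 change of Slike over ZS11 in each of 414 bins of 2 Mb with at least 20 tested genes, in order along the 19 chromosomes (alternating colours); dotted lines mark 0.3 and -0.3. The 2 last bins of A01 stand at 2.96 and 5.13, the first bins of C02 at -0.71 to -0.75, and 398 bins lie between -0.25 and 0.29.

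A01 and C01, and A02 and C02, are partner chromosomes of the A and C subgenomes, so the shifted stretches were also compared as pairs. Genes were paired where a protein match occurred in only 1 gene of each stretch; this comparison was added after the shifts had been seen and carries no test. For 436 pairs of A02 (0 to 6 Mb) and C02 (0 to 10 Mb), the summed level of both copies was 18828 ± 44.2 CPM in Slike and 19912 ± 30.7 in ZS11. The A copies made up 65.4% ± 0.0992 of that sum in Slike, 48.9% ± 0.134 in ZS11, 91.8% ± 0.0658 in SX3 and 55.9% ± 0.122 in Zlike (SD, n = 3). The A share was higher in Slike than in ZS11 for 380 of the 436 pairs. Across 144 pairs of A01 (34 to 38 Mb) and C01 (44 to 58 Mb), the sums were 5621 ± 26.3 and 5662 ± 5.83 CPM and the A share was 27.4% ± 0.308 in Slike, 6.83% ± 0.0759 in ZS11, 59.4% ± 0.179 in SX3 and 12.3% ± 0.142 in Zlike. The C01 range holds both shifted stretches of C01 and also the bins between them, which were not shifted by the rule used here. On the scale from ZS11 to SX3, Slike lay at 38.4% for the first set of pairs and at 39.1% for the second, and Zlike at 16.2% and 10.3%. Reads that match both copies could be split between them, which was not tested.

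Genes seen in only 1 parent gave another view of the mixed background, which is not separate from the shifted stretches. With at least 1 CPM in each library of a parent and no count in the other, 950 genes were found in ZS11 but not SX3 and 313 in SX3 but not ZS11. The 2 Mb bins of C02 from 0 to 10 Mb held 71, 70, 61, 43 and 20 of the ZS11 genes. Those of A01 from 34 to 38 Mb held 22 and 39 of the SX3 genes. The Slike level of the ZS11 genes had a median of 60.0% of the ZS11 level (quartiles 48.8% and 72.3%), and none of the 950 was at 0 in Slike. The SX3 genes had a median Slike level of 38% of the SX3 level (quartiles 29.6% and 48.4%), and 1 of 313 was at 0. In Zlike the medians were 88.2% and 11.0%. Chromosome medians of the ZS11 genes lay between 47.1% (A10, 12 genes) and 70.6% (C03, 37 genes), and those of the SX3 genes between 25.8% (C04, 11 genes) and 58.9% (A10, 5 genes). Among 43 bins with at least 5 ZS11 genes, 38 had a Slike median between 40% and 80%, with extremes of 31.5% on A06 and 95.9% on C04. Because the ZS11 and SX3 levels chose these genes, the percentages are a description.

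**Figure D5:**
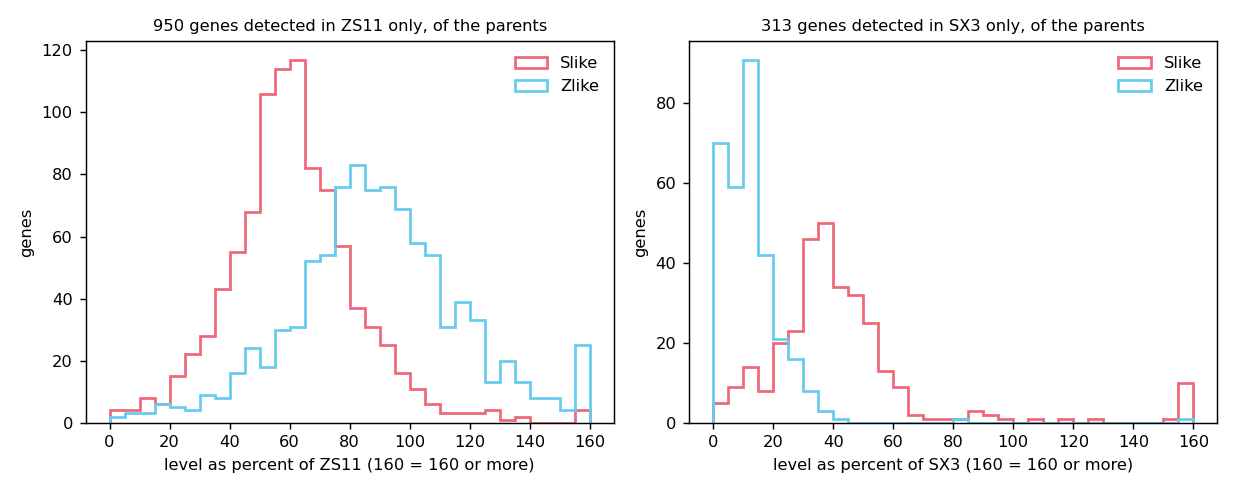
Number of genes by their level in Slike (red) and Zlike (blue) as a percent of the parent that has them, for 950 genes detected in ZS11 but not SX3 (left) and 313 detected in SX3 but not ZS11 (right), in 5% steps with values past 160% in the last step. Slike medians are 60.0% and 38%, and Zlike medians are 88.2% and 11.0%.

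Some Slike levels lay outside both parents. Of 49587 genes with a mean of at least 1 CPM, 801 (1.62%) had all 3 Slike libraries above all 6 ZS11 and SX3 libraries and a mean at least 2-fold above the nearer parent, and 515 (1.04%) lay below both by the same rule. Above both parents were 14 of 49 floral meristem identity genes, 11 of 28 floral organ identity genes, 23 of 55 anther genes and 12 of 56 carpel genes, and none of 86 clock genes. A gene under 1 CPM in both parents entered these counts only through a Slike mean of at least 1 CPM. The shares are thus not independent of the rule and carry no test. Below both were 13 of 74 glucosinolate genes and 15 of 165 vascular genes. PRP4 on A08 (BnaA08G0199700ZS), a proline-rich cell wall protein, had 125, 141 and 137 CPM in Slike, 35.3, 36.8 and 38.2 in ZS11 and 47.8, 47 and 46.9 in SX3. RD22 on A02 (BnaA02G0379600ZS), a dehydration-responsive protein, had 91.1, 87 and 93.4 CPM, 23, 28.6 and 24.8 CPM and 27.6, 26.5 and 27.2 CPM. JAL35 on A05 (BnaA05G0390800ZS), a jacalin-related lectin, was below both parents, with 397, 395 and 383 CPM against 1455, 1465 and 1429 CPM in ZS11 and 1058, 1104 and 1060 CPM in SX3. Zlike stood with the parents for PRP4 (48.7 CPM) and with Slike for JAL35 (mean 400 CPM). The rule that chose these genes used the same levels, so the values are a description, and the 3 genes named here were picked after their values were seen.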

How the data were processed

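RNA was sequenced from apical meristems in 12 libraries, 3 in each of 4 groups, and groups were taken from the titles. Reads were trimmed with fastp, aligned with HISAT2 and counted with featureCounts, per the submitters' processing notes; versions, the genome build, strand use and the treatment of multi-mapping reads could not be learned from the labels or files. The deposited table holds raw counts for 100919 genes and the authors' FPKM, which were recomputed from the counts with a largest relative deviation of 8.4e-15 and not tested. Slike and ZS11 (6 libraries) were compared on the counts with edgeR 4.0.16 (R 4.3.3; filterByExpr, TMM scaling, quasi-likelihood test, Benjamini-Hochberg adjusted p under 0.05), and Slike was set against Zlike and SX3 in a fit of all 12 libraries. In a test on simulated counts, 200 of 49253 genes were changed, all with high counts and by at least 2-fold. All 200 were called, and so were 8 unchanged ones. The setting was easier than the data, with few changed genes and no small changes. It thus checks that the steps run, not how many calls here are right. Genes were named by 4 rules: the 8 annotated genes with the smallest p in each direction at least 2-fold apart and not overlapping, the member of each list with the smallest p in each direction, fixed regulators by their copy with the highest level, and 2 genes for each shifted stretch. The members and gene lists were chosen with earlier results of these data known. Alternatives were other scaling, DESeq2 1.42.0, other filters, a fit of 12 libraries, a replicate block and leaving out each library.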

Additional observations from a re-analysis of the deposited data

How the results depend on the processing

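The number of genes called lay between 22586 with DESeq2 and 29524 without a filter on low counts, beside 27894 as reported, and the number at least 2-fold different between 5760 with a minimum of 1 CPM in 3 libraries and 8677 without a filter, beside 6472. Leaving out each library in turn gave 26049 to 26675 called genes and 6831 to 6970 genes at least 2-fold different. Of the values for lists, counts, bins and parental genes, 316 of 317 alternatives kept within 1.5 times of the reported count or within the spread. The exception was floral organ identity, where 39 of 60 genes were called without a filter, beside 24 of 27, because more genes were tested. Of 1115 alternatives for named genes, 1 changed sign: TFL1 on A03, not called in either case, had log2 changes of -0.05 (without ZS11 replicate 2) to 0.06 (without ZS11 replicate 3) when each library was left out. Libraries with the same replicate number did not deviate together (correlations of -0.00337, 0.00367 and -0.00828), and a fit with the replicate block called 27639 genes, 27544 of them also called without it. Leaving the genes of the 7 shifted stretches out of the counts, an alternative chosen after seeing the data, left 26070 called genes and 5855 at least 2-fold different. With upper-quartile scaling 17 bins passed a median of 0.3, beside 16. A minimum of 5 CPM for parental genes gave Slike medians of 61.1% and 37.6%. A group without counts allows up to 3 counts per library.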

Other observations

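Protein families outside the lists were described by their Pfam domain, for 260 domains with at least 30 tested genes. The highest median log2 change was that of the C-terminal domain of 3-oxoacyl-ACP synthase III, found in enzymes that lengthen fatty acids for waxes and cutin, with 31 of 41 tested genes higher, 5 lower and a median of 0.74. The hydrophobic seed protein domain, shared by lipid-transfer-like proteins, had 19 of 33 higher, 12 lower and a median of 0.58. The SPFH or band 7 domain of membrane scaffold proteins had 25 of 40 higher and none lower, with a median of 0.49.

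The lowest median was that of the divergent CCT motif, found in the JAZ repressors of jasmonate signalling, at -1.09 with 24 of 30 tested genes lower and 2 higher. Fasciclin domain proteins of the cell surface had 30 of 38 lower and 2 higher (median -0.62). The CBF-B/NF-YA subunit of the CCAAT-binding factor had 19 of 30 lower and none higher (median -0.59), and the C-terminal domain of glutathione S-transferases 57 of 85 lower and 13 higher (median -0.57). A gene with several domains counts in each, and these families were picked by their medians, so no test is given.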
